A study of Mus musculus with 7 samples.

Results

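Interferon-stimulated genes (ISGs) are transcribed when a cell senses interferon, and the accessibility of their chromatin was described in CD4+ T cells of mice infected with the nematode *Nippostrongylus brasiliensis*. The set held 47 genes named by symbol, and its regions were all regions of the deposited table that overlapped the GENCODE gene body or the 10 kb on either side of it. This gave 319 of the 113820 regions. A region was assigned to a promoter when its midpoint lay within 1 kb of an annotated start of the gene, which gave 77 promoter regions, and the other 242 regions were kept apart. Of the 47 genes, 46 had at least 1 region and 43 had a promoter region, out of 19143 genes with a promoter region in the whole table. Because several ISGs lie in clusters, 39 of the 319 regions and 3 of the 77 promoter regions belonged to more than 1 of them. Of the 242 other regions, 41 lay within 1 kb of the start of a gene outside the set or of a neighboring member.

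ATAC-seq, a sequencing assay of open chromatin, counts insertions of a transposase, which enters open chromatin more readily than closed chromatin. All 7 libraries came from C57BL/6 reporter mice infected with 500 L3 larvae, each made from 50000 sorted cells on day 8 of infection. The LN IL-4+ population (2 libraries) and the lung IL-4+ population (3 libraries) were GFP+ cells of IL-4-4get mice, from the mediastinal lymph nodes and the lung. The lung IFNγ+ population (2 libraries) was YFP+ cells of IFN-gamma-Great mice. The reporter line changed together with the cytokine, and an effect of the line cannot be told apart from that of the population. As the LN gave only IL-4+ cells and the IFNγ+ cells came only from the lung, they are called LN cells and IFNγ+ cells from here on. The 4get reporter marks cells competent to make IL-4, whether or not they secrete it. All cells were gated as CD3ε+ CD4+ and negative for CD11b, CD11c, CD8, B220, NK1.1 and Ter119. No uninfected, interferon-treated or reporter-negative cells were analysed here, so the values compare 3 infected populations with one another and not with a state without interferon.

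Type I interferons act through a receptor that activates a complex with IRF9, which binds the interferon-stimulated response element (ISRE). IFNγ acts through its own receptor, and many of its target genes hold the gamma-activated site (GAS). Many ISGs answer to both signals, and their products inhibit viral replication, sense foreign RNA, attack vacuoles that hold microbes and load peptides on MHC class I.

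The letters of these elements were searched on both strands in the RefSeq promoter windows of GRCm38.p6, which run from 250 bases before to 50 bases after each start. The table held 43 windows for 36 of the 47 genes. It held none for *Dhx58*, *Ifi27l2a*, *Iigp1*, *Mx1*, *Mx2*, *Nlrc5*, *Oas2*, *Parp14*, *Parp9*, *Usp18* and *Zbp1*. The ISRE was searched as 2 copies of GAAA with any 2 bases between them and occurred in 17 of the 43 ISG windows (39.5%) against 3.44% of all 32851 windows. The GAS was searched as TTCNNNGAA and occurred in 14 of the 43 (32.6%) against 8.30% of all. By gene, 17 of 36 ISGs (47.2%) had an ISRE match in any of their windows against 3.99% of all genes, and 14 of 36 (38.9%) had a GAS match against 9.55%. The T-box letters AGGTGTGA were in 0 of the 43 windows (all windows 1.28%) and the Runx letters AACCACA in 2 (4.65%, all windows 5.27%). The GATA letters AGATAA were in 7 (16.3%, all windows 11.2%) and the bZIP letters TGANTCA in 7 (16.3%, all windows 7.81%). A match is a run of letters and not a shown binding site. The 250 bases before the start are printed for 6 genes to which the results return, 5' to 3' along the gene, with ISRE and GAS matches in capitals. The *Ifit1* (chr19:34640639-34640888, + strand), *Ifit3* (chr19:34583279-34583528, + strand) and *Gbp3* (chr3:142559794-142560043, + strand) stretches each held 2 ISRE matches, which overlapped in *Gbp3*. *Oas3* (chr5:120777660-120777909, - strand) held 1 ISRE match, *Ifit2* (chr19:34550444-34550693, + strand) 1 GAS match and *Psmb9* (chr17:34187331-34187580, - strand) neither. *Ifit2* and *Gbp3* each have a second start in the table, whose stretches (chr19:34550838-34551087 and chr3:142560106-142560355) held neither match and are not printed.
Ifit1: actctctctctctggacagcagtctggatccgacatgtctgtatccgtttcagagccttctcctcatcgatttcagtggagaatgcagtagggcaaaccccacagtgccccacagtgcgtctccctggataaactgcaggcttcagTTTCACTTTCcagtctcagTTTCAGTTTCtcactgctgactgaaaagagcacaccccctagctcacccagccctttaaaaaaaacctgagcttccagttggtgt
Ifit3: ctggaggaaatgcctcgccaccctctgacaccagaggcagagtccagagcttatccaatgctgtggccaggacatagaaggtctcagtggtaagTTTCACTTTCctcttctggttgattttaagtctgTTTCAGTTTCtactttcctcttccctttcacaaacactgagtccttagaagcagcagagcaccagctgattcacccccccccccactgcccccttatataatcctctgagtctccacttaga
Gbp3: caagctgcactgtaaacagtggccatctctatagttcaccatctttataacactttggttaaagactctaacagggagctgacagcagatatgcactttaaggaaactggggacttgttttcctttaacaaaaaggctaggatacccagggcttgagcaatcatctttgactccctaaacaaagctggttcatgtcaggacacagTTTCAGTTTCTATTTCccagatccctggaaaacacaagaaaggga
Oas3: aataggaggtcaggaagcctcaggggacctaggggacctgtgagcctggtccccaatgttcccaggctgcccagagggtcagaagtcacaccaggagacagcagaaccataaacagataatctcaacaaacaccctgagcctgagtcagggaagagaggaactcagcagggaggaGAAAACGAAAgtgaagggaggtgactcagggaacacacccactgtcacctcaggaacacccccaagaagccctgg
Ifit2: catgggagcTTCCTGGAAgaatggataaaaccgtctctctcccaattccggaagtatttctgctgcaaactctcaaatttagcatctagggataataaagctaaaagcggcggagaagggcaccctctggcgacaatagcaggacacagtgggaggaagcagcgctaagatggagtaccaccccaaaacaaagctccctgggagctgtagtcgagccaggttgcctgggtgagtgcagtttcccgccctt
Psmb9: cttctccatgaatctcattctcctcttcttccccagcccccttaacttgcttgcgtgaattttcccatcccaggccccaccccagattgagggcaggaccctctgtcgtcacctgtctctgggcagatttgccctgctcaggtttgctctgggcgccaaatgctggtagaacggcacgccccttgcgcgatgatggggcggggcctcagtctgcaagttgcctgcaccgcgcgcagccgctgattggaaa

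**Figure D1:**
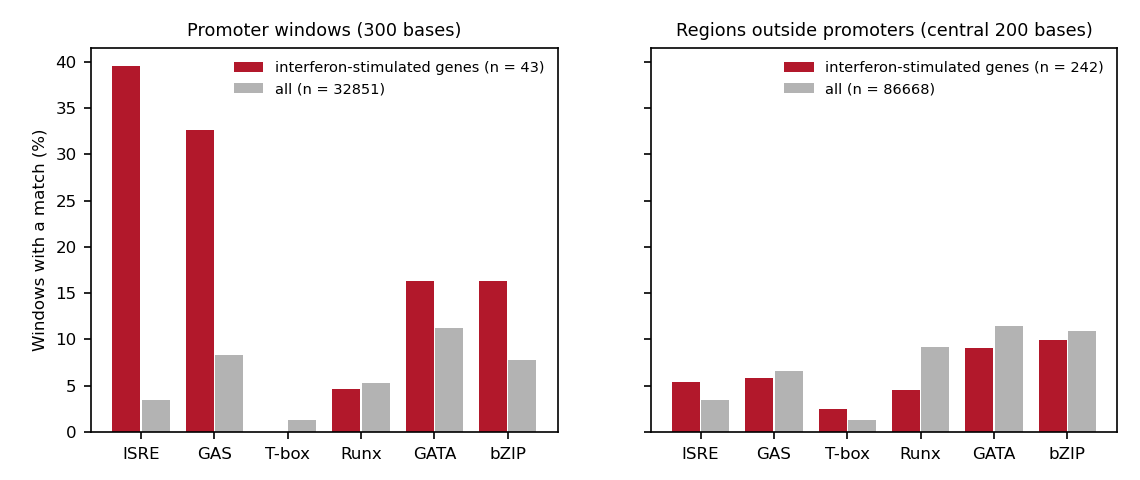
Share of windows (y axis, percent) that hold each of 6 motifs (x axis), for ISGs (red) and for all windows (gray). The left panel takes the RefSeq promoter windows of 300 bases (43 for ISGs, 32851 in all). The right panel takes the central 200 bases of the 242 other ISG regions and of the 86668 regions farther than 1 kb from any start. Of the 242, 41 lay within 1 kb of another gene's start. The ISRE was in 39.5% of the ISG promoter windows against 3.44% of all, and in 5.37% of the 242 other ISG regions against 3.45% of the 86668.

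In the regions of the table, the letters were searched in the central 200 bases, a shorter window that is not placed on a start, so that these shares cannot be set against those of the RefSeq windows. Of the 77 ISG promoter regions, 5 held an ISRE match (6.49%) against 2.23% of all regions within 1 kb of a start, and 10 a GAS match (13%) against 4.92%. Of the 242 other ISG regions, 13 held an ISRE match (5.37%) and 14 a GAS match (5.79%). Of all regions farther than 1 kb from any start, 3.45% and 6.56% did. These sets are not alike, since 41 of the 242 lay within 1 kb of another gene's start. The 8 ISG regions that passed the test in at least 1 comparison were all among the 242 other regions. Their central 200 bases on the + strand of GRCm38.p6 are shown because they carry the differences reported here. Capitals mark matches to any of the 6 motifs. The *Mx1* region (chr16:97468292-97468491) held the only ISRE match, at the edge of a GA repeat, and none held a GAS or bZIP match. The GATA letters were in the regions of *Igtp* and *Irgm2* (chr11:58189808-58190007), *Gbp7* (chr3:142533280-142533479) and *Isg20* (chr7:78909047-78909246), or 3 of 8 against 10.3% of all regions. The *Gbp7* region also held the T-box letters and the *Ifih1* region (chr2:62619072-62619271) the Runx letters. The regions of *Usp18* (chr6:121238323-121238522), *Irf2* (chr8:46782348-46782547) and *Nlrc5* (chr8:94428142-94428341) held none of the 6.
Usp18: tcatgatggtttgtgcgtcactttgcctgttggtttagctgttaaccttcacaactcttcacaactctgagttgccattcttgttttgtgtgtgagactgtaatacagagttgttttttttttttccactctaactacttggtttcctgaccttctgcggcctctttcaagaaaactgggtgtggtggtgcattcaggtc
Isg20: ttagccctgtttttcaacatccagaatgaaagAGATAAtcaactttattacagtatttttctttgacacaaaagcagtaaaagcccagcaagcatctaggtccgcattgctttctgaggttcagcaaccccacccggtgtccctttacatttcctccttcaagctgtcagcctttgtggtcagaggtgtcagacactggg
Ifih1: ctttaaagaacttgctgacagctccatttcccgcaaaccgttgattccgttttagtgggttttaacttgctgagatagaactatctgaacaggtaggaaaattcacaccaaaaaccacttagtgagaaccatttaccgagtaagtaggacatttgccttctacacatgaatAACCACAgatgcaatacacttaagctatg
Irf2: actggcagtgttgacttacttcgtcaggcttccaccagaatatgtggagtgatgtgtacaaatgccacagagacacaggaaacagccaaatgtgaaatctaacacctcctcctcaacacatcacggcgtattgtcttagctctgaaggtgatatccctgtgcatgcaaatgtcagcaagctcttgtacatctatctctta
Igtp and Irgm2: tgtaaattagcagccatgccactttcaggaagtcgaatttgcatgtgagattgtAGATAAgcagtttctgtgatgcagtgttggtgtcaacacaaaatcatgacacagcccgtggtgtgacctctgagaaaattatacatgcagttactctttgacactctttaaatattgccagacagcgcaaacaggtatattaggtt
Mx1: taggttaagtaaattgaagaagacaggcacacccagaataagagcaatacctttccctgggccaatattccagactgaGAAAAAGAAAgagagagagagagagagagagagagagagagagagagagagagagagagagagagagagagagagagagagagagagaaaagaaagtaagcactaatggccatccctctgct
Gbp7: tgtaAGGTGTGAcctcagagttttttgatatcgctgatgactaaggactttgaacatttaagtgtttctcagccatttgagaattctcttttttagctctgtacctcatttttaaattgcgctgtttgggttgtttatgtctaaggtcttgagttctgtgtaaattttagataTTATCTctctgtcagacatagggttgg
Nlrc5: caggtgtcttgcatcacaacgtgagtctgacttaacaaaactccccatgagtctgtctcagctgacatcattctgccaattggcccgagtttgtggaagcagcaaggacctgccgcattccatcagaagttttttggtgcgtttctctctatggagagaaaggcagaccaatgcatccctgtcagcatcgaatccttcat

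Rebuilt insertion counts, which are lower bounds, ran from 14005923 to 91681969 per library, with a median region of 53 to 176 insertions. The libraries differed in how unevenly insertions were spread over regions. Measured as the interquartile range of log2 insertions per region, this spread was 1.67 to 1.75 in LN replicate 1 and lung IL-4+ replicates 2 and 3 (narrow spread) and 2.91 to 3.09 in LN replicate 2, lung IL-4+ replicate 1 and both IFNγ+ libraries (wide spread). Since both IFNγ+ libraries were wide, the spread moved with that population. Differences given below within the wide libraries rest on 1 LN, 1 lung IL-4+ and 2 IFNγ+ libraries. Those within the narrow libraries rest on 1 LN and 2 lung IL-4+ libraries. They are descriptions without a test. Of 10 T cell markers, 8 had a promoter region and all 8 reached 5 normalized insertions per kilobase in each population, with summed normalized insertions of 331 to 551 in the IL-4+ libraries and 326 in both IFNγ+ libraries. Of 5 B cell markers, only *Pax5* had a promoter region, with 18.8 to 19.2 normalized insertions in the LN libraries, 5.36 to 10.6 in lung IL-4+ and 8.00 to 10.1 in IFNγ+, and *Cd22*, *Cd79a*, *Cd79b* and *Ms4a1* had none. Promoter regions were found for 1 of 2 CD8 T cell markers (sum 2.91 to 7.23), 2 of 6 myeloid (7.93 to 14.4), 2 of 3 NK cell (18.8 to 30.9) and 2 of 5 epithelial markers (17.6 to 23.5). The CD8 marker was higher in both LN libraries than in any lung library. Summed epithelial markers were higher in IFNγ+ (22.2 to 23.5) than in lung IL-4+ libraries (17.6 to 20.6), but the genes differed. *Cdh1* had promoter densities of 11.7 and 12.8 normalized insertions per kilobase in IFNγ+ against 7.48 to 9.64 in lung IL-4+ libraries. *Epcam* overlapped, at 9.23 and 9.47 against 8.79 to 9.61. The summed myeloid and NK cell ranges of the populations overlapped. Of the myeloid markers, *Itgam* was higher in IFNγ+ cells, with promoter densities of 7.77 and 5.39 normalized insertions per kilobase against 0.898 to 2.89 in the IL-4+ libraries, and *Cd14* overlapped at 5.49 and 6.01 against 4.26 to 7.80. Their part in the results was not tested.

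Promoters of ISGs did not pass the test in any of the 3 comparisons, and few other ISG regions did. Calls required a limma p under 0.05 after Benjamini-Hochberg adjustment over all regions, with a difference of 3-fold or more. Between IFNγ+ and LN cells, 6 of 319 ISG regions (1.88%) were called higher in IFNγ+ cells against 2.17% of all regions, and 1 (0.313%) was called higher in LN cells against 0.862%. Between lung IL-4+ and LN cells, 1 (0.313%) was higher in the lung against 1.05% of all regions and 1 (0.313%) was higher in the LN against 0.695%. Between the 2 lung populations, 1 (0.313%) was higher in IFNγ+ cells against 0.387% and 0 were higher in IL-4+ cells against 0.108%. These shares rest on counts of 0 to 6, and their order against all regions changed with the method. With voom on the rebuilt counts, 11 ISG regions (3.45%) were called higher in IFNγ+ than in LN cells against 3.21% of all regions, and 4 (1.25%) higher in IFNγ+ than in lung IL-4+ cells against 0.738%. The comparisons share populations and are not independent of each other. Single libraries decided many calls, over all regions as well as over ISG regions. Without lung IL-4+ replicate 2 or 3, 0 ISG regions were called higher in IFNγ+ than in lung IL-4+ cells. Over all regions this share fell to 0.000879% and 0.0351%. Leaving out an IFNγ+ or LN library leaves 1 in that population, so counts of those fits are not given. Without either IFNγ+ library the ISG calls were lost, and calls over all regions fell in every comparison. Without LN replicate 2, calls higher in either lung population than in LN cells rose for ISG regions and for all regions.

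Counts of 0 do not show equal accessibility. For the 0 ISG regions called higher in lung IL-4+ than in IFNγ+ cells, 15 had an unadjusted p below 0.05 in limma, 4 of them at 3-fold, and voom on the rebuilt counts also called 0. Of the 77 ISG promoter regions, 0 were called in either direction, against 0.0479% of all regions within 1 kb of a start for higher in lung IL-4+ than IFNγ+ cells, 0.151% for the reverse, 0.372% and 0.221% for higher in lung IL-4+ and in LN cells, and 0.851% and 0.350% for higher in IFNγ+ and in LN cells. At an unadjusted p below 0.05 in limma, 1 ISG promoter region was higher and 7 were lower in lung IL-4+ than in IFNγ+ cells, 4 were higher and 5 lower in lung IL-4+ than in LN cells, and 8 were higher and 2 lower in IFNγ+ than in LN cells. The smallest adjusted p among ISG promoters was 0.150, 0.0571 and 0.113 in these 3 comparisons. With voom, 1 promoter region was called in the first, 0 in the second and 2 in the third, namely those of *Ifit3* and *Ifi47*. The median standard error of an ISG promoter's log2 difference was 0.30 in the first and second and 0.33 in the third.

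The center of the ISG regions was near that of all regions. The median log2 difference over the 319 regions was 0.01 for lung IL-4+ minus IFNγ+ cells, against -0.01 over all regions. For lung IL-4+ minus LN cells it was 0.09 against -0.03, and for IFNγ+ minus LN cells 0.07 against -0.03. Over the promoter regions these medians were -0.02, 0.07 and 0.07 for ISGs and -0.01, -0.10 and -0.09 for all regions within 1 kb of a start.

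**Figure D2:**
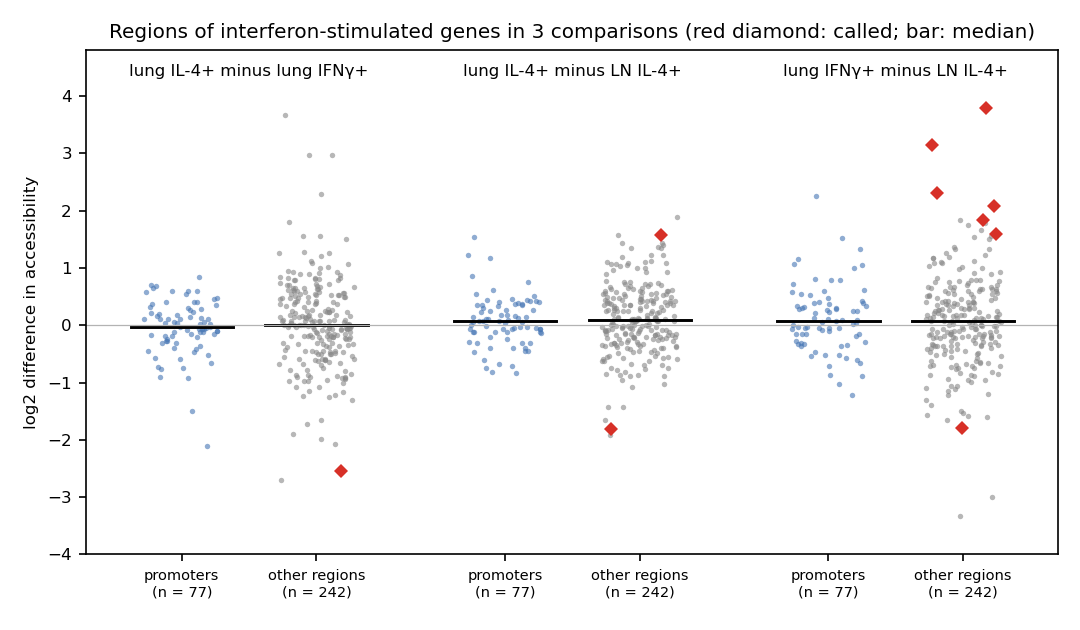
Log2 difference in accessibility (y axis) of the 77 promoter and 242 other ISG regions in 3 comparisons (x axis). Points are regions, black bars medians and red diamonds called regions. No promoter is called, 1 other region is called between the lung populations, 2 between lung IL-4+ and LN cells and 7 between IFNγ+ and LN cells.

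The region with the clearest IFNγ+ signal lay upstream of *Usp18*, which encodes a protease that removes ISG15 from proteins and restrains type I interferon receptor signaling. It spanned chr6:121238154-121238690, 7216 bp before the gene, and is the first of the 8 sequences shown. Its log2 density (log2 normalized insertions per kilobase) was 1.24 and 1.39 in the LN libraries, 1.03, 1.10 and 1.11 in the lung IL-4+ libraries and 3.55 and 3.69 in the IFNγ+ libraries. Both IFNγ+ libraries stood above all 5 others, which lay close together. Lung IL-4+ minus IFNγ+ cells gave -2.54 ± 0.36 on the log2 scale (SE, limma adjusted p = 0.0204), the one ISG region called between the lung populations. IFNγ+ cells exceeded LN cells by 2.31 ± 0.39 (SE, adjusted p = 0.0108). These values rest on 30 to 67 rebuilt insertions in the IL-4+ libraries and 317 and 629 in the IFNγ+ libraries. Within the wide libraries the differences were -2.59 and 2.24. The call between lung populations was lost without lung IL-4+ replicate 2 or 3 (limma adjusted p = 0.105 and 0.0689) and both calls without either IFNγ+ library (adjusted p between 0.215 and 0.664). The promoter of *Usp18* had a density of 12.7 and 20.2 in LN, 19.5, 18.0 and 16.1 in lung IL-4+ and 21.1 and 20.6 in IFNγ+ libraries, in normalized insertions per kilobase. Its IFNγ+ libraries were also the highest, with log2 differences of -0.23 for lung IL-4+ minus IFNγ+ and 0.38 for IFNγ+ minus LN cells, which were -0.10 and 0.05 within the wide libraries.

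Upstream of *Isg20*, which encodes an exonuclease that degrades viral RNA, a region at chr7:78908851-78909441 lay 3983 bp before the gene. Its log2 density was 1.77 and -0.40 in LN, 1.93, 2.90 and 2.88 in lung IL-4+ and 4.51 and 4.44 in IFNγ+ libraries. The 3 populations did not overlap and rose in that order, and the LN libraries differed widely from each other, the lower one resting on 14 rebuilt insertions. IFNγ+ cells exceeded LN cells by 3.79 ± 0.62 (SE, limma adjusted p = 0.00909), while lung IL-4+ minus LN cells gave 1.89 (adjusted p = 0.113). The size of the first difference depended on the LN library, at 4.88 without LN replicate 1 and 2.70 without LN replicate 2, both called. Without IFNγ+ replicate 1 or 2 that call was lost (adjusted p = 0.111 and 0.0908).

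Introns of an RNA sensor and of a regulatory factor held 2 more regions of this kind. In *Ifih1*, the gene of the double-stranded RNA sensor MDA5, a region at chr2:62618949-62619393 had log2 densities of -0.29 and 0.91 in LN, 1.44, 1.01 and -0.14 in lung IL-4+ and 3.79 and 3.14 in IFNγ+ libraries. The IFNγ+ libraries were above the other 5, whose 2 populations overlapped, and the difference from LN cells was 3.15 ± 0.66 (SE, limma adjusted p = 0.0263). Lung IL-4+ minus IFNγ+ cells gave -2.69, which missed the threshold (adjusted p = 0.0820). In *Irf2*, whose product mostly represses ISRE-driven genes, an intronic region at chr8:46782227-46782668 had 0.84 and 1.32 in LN, 1.27, 0.81 and 1.17 in lung IL-4+ and 3.36 and 2.95 in IFNγ+ libraries. Again only the IFNγ+ libraries stood apart, by 2.07 ± 0.45 from LN cells (SE, limma adjusted p = 0.0313). Without LN replicate 1, the narrow LN library, neither region passed the test (adjusted p = 0.10 for *Ifih1* and 0.104 for *Irf2*), with differences of 2.55 and 1.84. The same held without either IFNγ+ library (adjusted p between 0.177 and 0.442) and, for *Ifih1*, without lung IL-4+ replicate 2 (adjusted p = 0.0553).

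A region shared by *Igtp* and *Irgm2*, neighboring genes of GTPases that act on vacuoles of intracellular microbes, was higher in both lung populations. It lay at chr11:58189545-58190270, 9286 bp before *Igtp*, and the nearest start, 2168 bp away, was that of *Gm12250*. Its log2 density was 2.12 and 2.07 in LN, 3.39, 3.31 and 3.64 in lung IL-4+ and 3.92 and 3.96 in IFNγ+ libraries. The replicates lay close together and the 3 populations did not overlap. IFNγ+ cells exceeded LN cells by 1.84 ± 0.26 (SE, limma adjusted p = 0.00529), the smallest adjusted p of the ISG regions. Lung IL-4+ cells exceeded LN cells by 1.35 (adjusted p = 0.0174), which passed the test but not the 3-fold minimum. Within the wide libraries these differences were 1.86 and 1.31. Without IFNγ+ replicate 1 or 2 the call was lost (adjusted p = 0.116 and 0.107).

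Upstream of *Mx1*, a GTPase gene of the antiviral response that is defective in C57BL/6 mice, the called region at chr16:97467968-97468815 lay 5061 bp before the gene and nearer to the start of *2210009P08Rik*. Its log2 density was 1.54 and 2.54 in LN, 2.66, 2.38 and 2.38 in lung IL-4+ and 3.81 and 3.45 in IFNγ+ libraries. The IFNγ+ libraries were above all others, by 1.59 ± 0.38 over LN cells (SE, limma adjusted p = 0.0451). This call was just over the 3-fold minimum, and without LN replicate 1 the difference was 1.09 (adjusted p = 0.156). It was also lost without lung IL-4+ replicate 2 or 3 (adjusted p = 0.0859 and 0.0636) or either IFNγ+ library (0.448 and 0.250).

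The opposite pattern occurred at *Nlrc5*, which encodes the transactivator of MHC class I genes. The region at chr8:94427925-94428557, 5799 bp before the gene and nearest to the start of *9330175E14Rik*, had log2 densities of 3.52 and 3.75 in LN, 1.41, 2.01 and 2.04 in lung IL-4+ and 1.88 and 1.80 in IFNγ+ libraries. Both LN libraries were above every lung library, and the lung populations overlapped. Lung IL-4+ minus LN cells gave -1.82 ± 0.34 (SE, limma adjusted p = 0.0202) and IFNγ+ minus LN cells -1.80 ± 0.37 (SE, adjusted p = 0.0245). Both calls were lost without LN replicate 1 or 2 or either IFNγ+ library, and the first without lung IL-4+ replicate 2, at adjusted p between 0.0554 and 0.236. In bulk libraries, fewer cells with the region open and less opening per cell cannot be told apart, here or at any other region.

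The single ISG region called higher in lung IL-4+ than in LN cells was in an intron of *Gbp7*, a guanylate-binding GTPase gene, at chr3:142533130-142533628. Its log2 density was 3.62 and 5.16 in LN, 6.21, 5.91 and 5.81 in lung IL-4+ and 5.88 and 5.91 in IFNγ+ libraries. It was the most open of the 8 called regions in both lung populations, and the LN libraries differed more from each other than the lung libraries did. The difference of 1.59 ± 0.35 (SE, limma adjusted p = 0.0397) was just over 3-fold. Without LN replicate 1 it was 0.82 (adjusted p = 0.0566), and the call remained without LN replicate 2 but not without any other library (adjusted p between 0.0645 and 0.151).

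**Figure D3:**
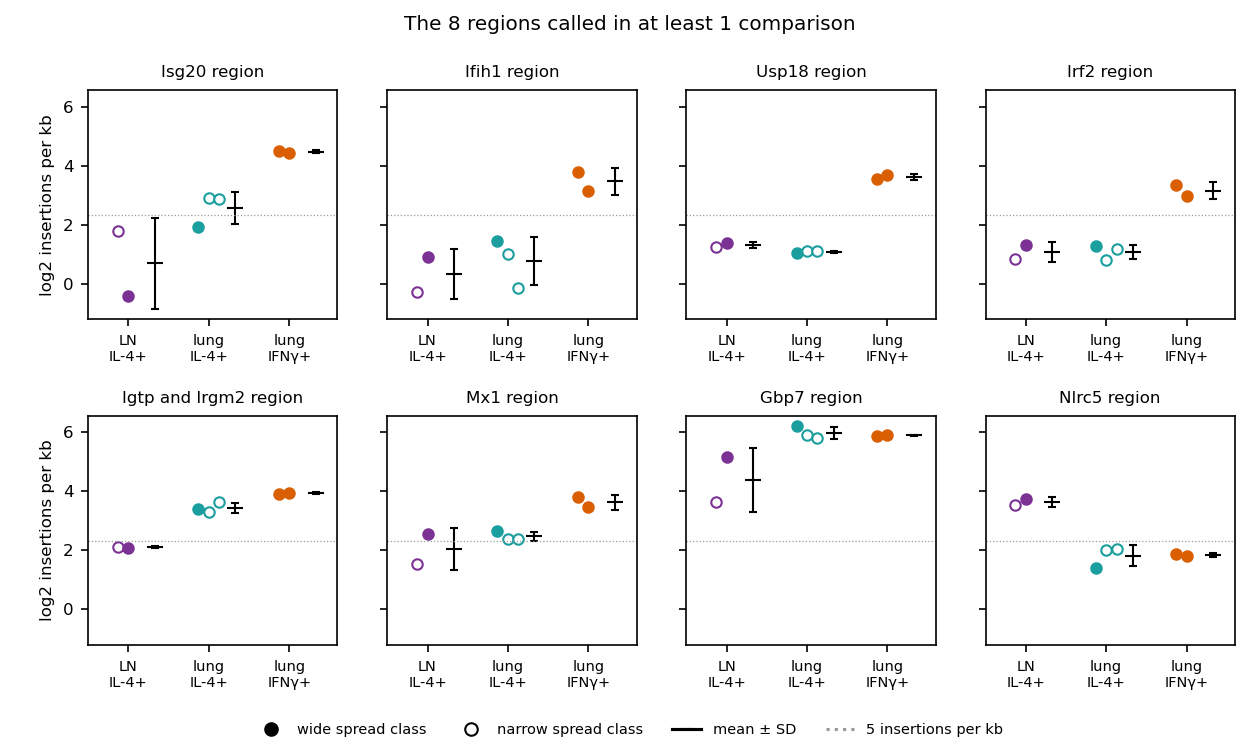
Log2 normalized insertions per kilobase (y axis) in each library of the 3 populations (x axis) for the 8 called ISG regions. Points are libraries (filled: wide spread, open: narrow spread), bars beside them the mean ± SD, and the dotted line marks 5 insertions per kilobase. At the regions of *Usp18*, *Irf2*, *Ifih1*, *Isg20* and *Mx1* and that of *Igtp* and *Irgm2*, the IFNγ+ libraries stand above the other 5. At *Nlrc5* the LN libraries lie above all lung libraries, and at *Gbp7* below them.

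With no fold minimum, 1 ISG region was lower in lung IL-4+ than in IFNγ+ cells (0.313% against 0.513% of all regions) and 0 were higher (0.151% of all regions). Lung IL-4+ cells were higher than LN cells at 4 ISG regions (all regions 1.88%) and lower at 1 (1.05%), and IFNγ+ cells were higher than LN cells at 8 (3.03%) and lower at 2 (1.16%). These hold 4 regions that passed an adjusted p of 0.05 (limma) without reaching 3-fold. They lay in an intron of *Ifi47* (lung IL-4+ minus LN 1.57, adjusted p = 0.0306), beyond the 3' end of *Psmb8* (1.35, adjusted p = 0.0132, and 1.55, adjusted p = 0.00818, for IFNγ+ minus LN), beyond the 3' end of *Trim25* (IFNγ+ minus LN 1.56, adjusted p = 0.0466) and before *Isg15* (IFNγ+ minus LN -1.06, adjusted p = 0.0315). Of these, the first 3 were higher in the lung and the last was lower.

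Promoter accessibility was next described by gene, as the summed normalized insertions of a gene's promoter regions divided by their length. Counts of genes whose libraries do not overlap between populations are descriptions only. An exact one-sided permutation test of 3 against 2 libraries cannot go below p = 0.1. For 2 against 2, as in IFNγ+ against LN cells, a two-sided one cannot go below 0.333. Of the 43 ISGs, 15 had every IFNγ+ library above every LN library, against 20.9% of all genes, and 11 the reverse, against 31.4%. Lung IL-4+ was above LN for 6 (all genes 6.31%) and below for 5 (18.2%), and lung IL-4+ was above IFNγ+ for 8 (22.5%) and below for 9 (28.2%). Part of these orders followed the spread of the libraries: for 10 of the 43 ISGs every narrow library was above every wide one (all genes 18.1%), and for 8 the reverse held (23.0%). The former included *Irf7*, *Ifi35*, *Irgm1*, *Tap1*, *Psmb8* and *Psmb9*, and the latter *Ifit2*, *Ifih1*, *Usp18* and *Gbp5*. How much the spread contributed to any difference was not tested.

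Of the interferon regulatory factors, *Irf2* was among the 3 most open ISG promoters and varied little. Its density was 25.9 and 28 in LN, 30.4, 29.1 and 29.9 in lung IL-4+ and 29.6 and 29.4 in IFNγ+ libraries. *Irf7*, which amplifies type I interferon responses, had 26.8 and 19.3 in LN, 16.6, 26.8 and 24.5 in lung IL-4+ and 16.2 and 15.6 in IFNγ+ libraries, and its 3 narrow libraries were the highest. *Irf8*, a factor of myeloid and B cells that activated T cells also use, had 24.2 and 23.0 in LN, 18.3, 15.5 and 16.5 in lung IL-4+ and 20.8 and 21.3 in IFNγ+ libraries. The 3 populations did not overlap at *Irf8*, with lung IL-4+ cells lowest (log2 difference -0.49 from LN and -0.33 from IFNγ+ cells). None of its 3 promoter regions was called. *Irf9*, the DNA-binding part of the complex at the ISRE, stayed between 15.9 and 18.8 in all 7 libraries. *Irf1*, an early target of IFNγ signaling, had no promoter region because a wide region of 7141 bp (chr11:53768351-53775491) covered its start with a midpoint 1232 bp away. That region had log2 densities of 3.97 and 3.11 in LN, 3.26, 4.16 and 4.36 in lung IL-4+ and 3.10 and 3.10 in IFNγ+ libraries, again higher in the narrow libraries, and was not called (lung IL-4+ minus IFNγ+ 0.83, limma adjusted p = 0.323).

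Among the antiviral effectors the widest promoter difference was at *Ifit3*, which encodes a partner of the RNA-binding protein IFIT1. Its density was 0.814 and 0.762 in LN, 0.727, 1.63 and 0.563 in lung IL-4+ and 4.45 and 3.17 in IFNγ+ libraries, in normalized insertions per kilobase. Both IFNγ+ libraries were above the 5 others, yet this was the least open of the 43 ISG promoters, with a mean of 1.73 over the libraries. The log2 difference was 2.25 ± 0.79 for IFNγ+ minus LN (SE, limma adjusted p = 0.154) and -2.1 ± 0.72 for lung IL-4+ minus IFNγ+ (SE, adjusted p = 0.235), so that it did not pass the test. Voom on the rebuilt counts, 21 to 69 insertions in the IL-4+ and 247 and 287 in the IFNγ+ libraries, gave 2.24 (adjusted p = 0.0131) and -2.06 (adjusted p = 0.0475), which did. Within the wide libraries the differences were 2.3 and -2.37.

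The neighboring *Ifit1* and *Ifit2* promoters were also most open in IFNγ+ cells, with smaller steps. *Ifit1* had 9.73 and 11.8 in LN, 9.95, 12.1 and 8.94 in lung IL-4+ and 15.6 and 12.8 in IFNγ+ libraries. *Ifit2* had 24.4 and 28.6, then 28.1, 17.7 and 17.8, then 35.8 and 32.6. At both genes the IFNγ+ libraries were the 2 highest, and no promoter region of either was called. The log2 differences for lung IL-4+ minus IFNγ+ were -0.46 and -0.72, and -0.51 and -0.28 within the wide libraries. *Ifit2* was also one of the promoters where every wide library was above every narrow one. The *Ifit3* stretch shown above held the same pair of ISRE matches as that of *Ifit1*, whose promoter was more open than that of *Ifit3* in every library.

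The promoters of 2 members of the oligoadenylate synthetase family, whose products are activated by or bind double-stranded RNA, were more open in the lung. *Oas3* had 15.5 and 12.4 in LN, 21.8, 29.9 and 24.4 in lung IL-4+ and 23.4 and 22.5 in IFNγ+ libraries. All 5 lung libraries were above both LN libraries, by a log2 difference of 0.86 ± 0.21 for lung IL-4+ (SE, limma adjusted p = 0.0571) and 0.73 ± 0.23 for IFNγ+ cells (SE, adjusted p = 0.113), neither of which passed. Within the narrow and the wide libraries the lung IL-4+ difference was 0.80 and 0.81. *Oasl2* had 11.2 and 8.4 in LN, 12.8, 16.6 and 13.5 in lung IL-4+ and 14.4 and 12.4 in IFNγ+ libraries, again without overlap between tissues. *Oasl1*, among the 3 least open promoters with a mean of 3.60, ran from 1.76 to 6.15 with overlap of all populations. *Oas2* had no promoter region, and its 2 other regions were not called.

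Among other antiviral effectors, *Ifi27l2a* was most open in the LN and *Rsad2* least open in lung IL-4+ cells. *Ifi27l2a*, whose product is an interferon-induced membrane protein, had 15.8 and 15.4 in LN, 8.49, 11.8 and 8.19 in lung IL-4+ and 8.70 and 9.72 in IFNγ+ libraries. Both LN libraries were the highest, with log2 differences of -0.74 and -0.76 for the lung populations, and its 2 promoter regions were not called (smallest adjusted p = 0.126, limma). *Rsad2*, the gene of the antiviral enzyme viperin, had 18.4 and 23.1 in LN, 15.3, 16.3 and 10.8 in lung IL-4+ and 22.7 and 19.3 in IFNγ+ libraries. Here lung IL-4+ cells were below both other populations (-0.57 and -0.59), while LN and IFNγ+ cells overlapped. *Mx1* had 5.65 and 5.32, then 2.81, 5.54 and 3.67, then 5.79 and 5.14, with overlap between each pair of populations. *Ifi44* had no region of the table within 10 kb.

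All 3 RNA sensor promoters separated by the spread of the libraries, *Ifih1* and *Ddx58* with the 4 wide libraries highest and *Dhx58* with the 3 narrow ones highest. *Dhx58*, which encodes the RIG-I-like regulator LGP2, had 11.2 and 5.75 in LN, 6.04, 11.8 and 13.2 in lung IL-4+ and 6.60 and 5.50 in IFNγ+ libraries. Its log2 difference of 0.70 for lung IL-4+ minus IFNγ+ was 0.00 within the wide libraries, which hold only 1 lung IL-4+ library. *Ifi35*, a signaling regulator, had 19.0 and 9.67, then 10.0, 14.3 and 15.4, then 8.07 and 8.46. Its differences of 0.66 for lung IL-4+ minus IFNγ+ and -0.71 for IFNγ+ minus LN were 0.28 and -0.23 within the wide libraries. *Dtx3l*, an E3 ubiquitin ligase gene that shares a promoter with *Parp9*, was among the 3 most open ISG promoters with a mean of 30.9 and ranged from 27.0 to 35.2.

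The promoters of all 8 interferon-inducible GTPase genes that had one were higher on average in lung IL-4+ than in LN cells, by log2 differences of 0.18 to 0.52, but only that of *Ifi47* did so without overlap, and none was called. Within the wide libraries, 1 of each of these populations, the direction turned for *Iigp1* (-0.42) and *Gbp5* (-0.04). At the 4 *Gbp* promoters LN replicate 1, the narrow one, was below every other library, and at *Gbp5* its density of 10.4 stood against 18.2 in LN replicate 2, which was above all 3 lung IL-4+ libraries. *Gbp3* had 14.4 and 22.3 in LN, 30.9, 25.8 and 21.1 in lung IL-4+ and 30.1 and 31.8 in IFNγ+ libraries. IFNγ+ cells were above both LN libraries (0.79 ± 0.26, SE, limma adjusted p = 0.129), and lung IL-4+ cells overlapped with both. *Irgm1*, which guards the cell's own membranes against the other GTPases, had 11.2 and 7.08, then 7.88, 13.7 and 14, then 7.06 and 7.02. Its log2 difference of 0.71 between the lung populations was 0.16 within the wide libraries. *Iigp1* was among the least open, with a mean of 3.00 and densities from 1.85 to 4.28. *Igtp* had no promoter region, since the region of 2986 bp over its start, which it shared with *Irgm2*, had its midpoint 1006 bp from the nearest start, and its log2 differences were 0.24 or less in size.

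The antigen presentation genes *Tap1*, *Psmb8* and *Psmb9*, a peptide transporter subunit and 2 immunoproteasome subunits, lie side by side in the MHC region and gave like values. *Psmb9*, which shares a bidirectional promoter with *Tap1*, had 34.6 and 17.9 in LN, 20.9, 27.3 and 28.7 in lung IL-4+ and 17.1 and 17.1 in IFNγ+ libraries. IFNγ+ libraries were the 2 lowest at all 3 genes, with log2 differences from LN of -0.53 for *Tap1*, -0.51 for *Psmb8* and -0.54 for *Psmb9*. Within the wide libraries these were -0.05, -0.12 and -0.07. *Nlrc5* had the most open ISG promoter, with a mean of 32.2 and values from 28.5 to 35.0, and its populations overlapped, unlike the region upstream of it.

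**Figure D4:**
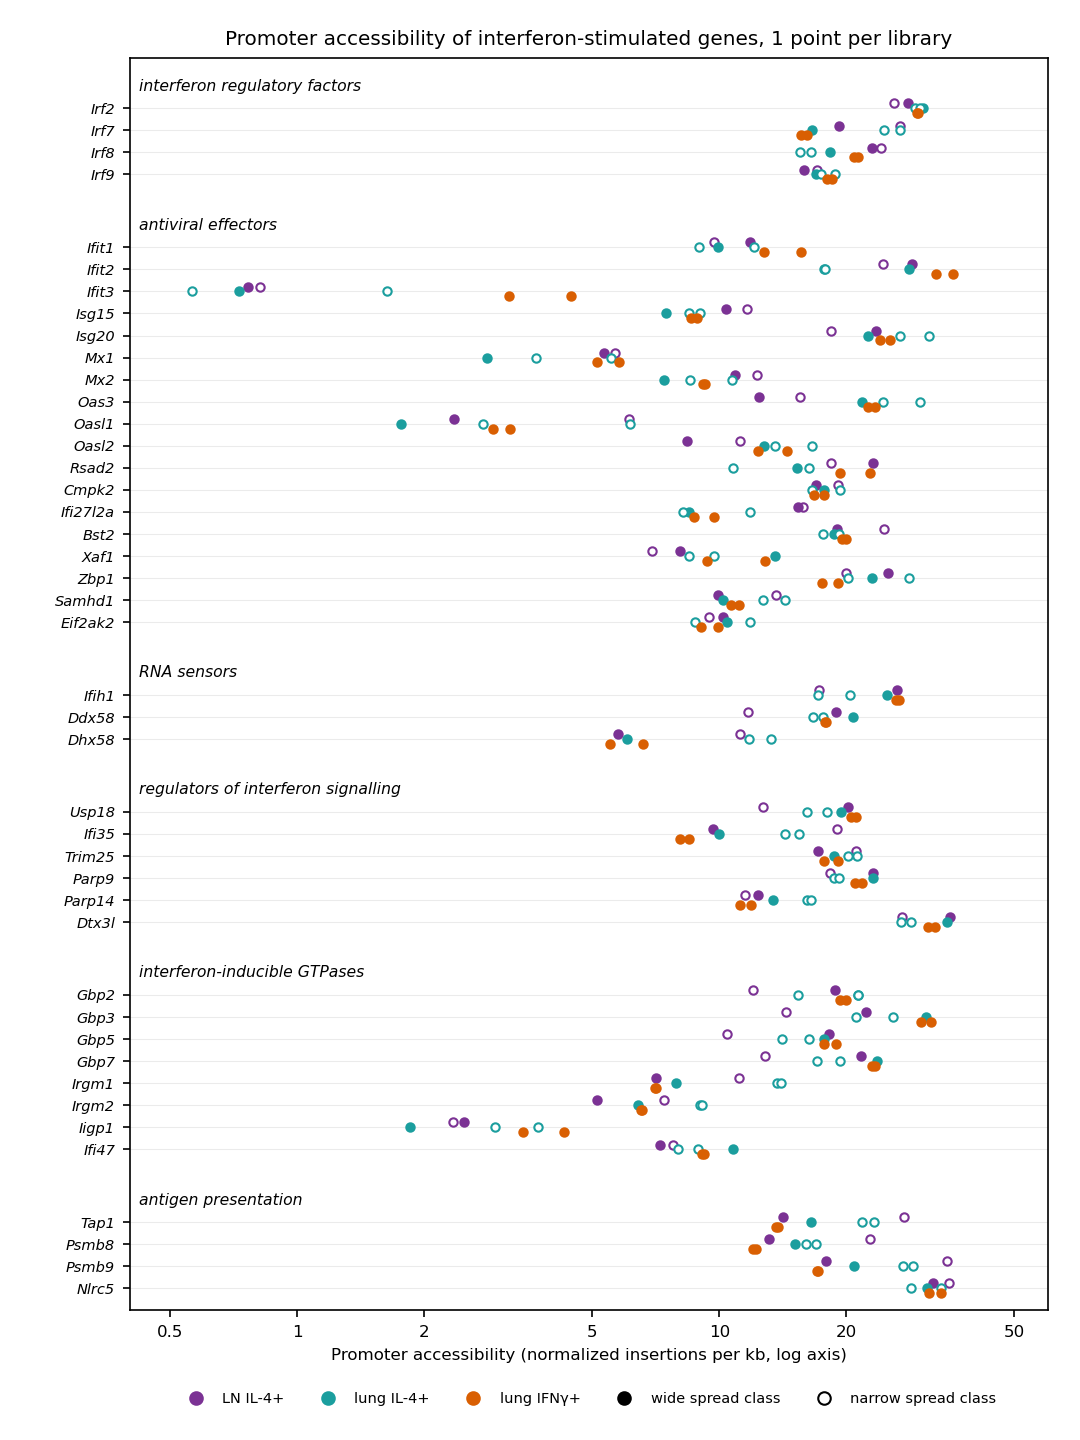
Promoter accessibility of the 43 ISGs with a promoter region (y axis, by role) in normalized insertions per kilobase (x axis, log scale). Each point is 1 library, colored by population, filled for wide and open for narrow spread. Most genes lie between 5 and 35 in every library, *Ifit3* is the lowest with its IFNγ+ libraries apart at 3.17 and 4.45, and at *Psmb9*, *Tap1*, *Dhx58* and *Ifi35* open and filled points separate.

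At the median, ISG promoters were about as open as those of other genes, but their upper quartile was lower. The median density of the 43 was 17.5 normalized insertions per kilobase (quartiles 9.90 and 20.8). It was 19.5 (9.42 and 33.1) over 13718 protein-coding genes and 16.4 (6.47 and 30.3) over all genes with a promoter region. The highest ISG promoter, at 32.2, was below the upper quartile of protein-coding genes. With 5 insertions per kilobase as the minimum for an accessible region, 52 of the 77 ISG promoter regions were accessible in LN, 53 in lung IL-4+ and 54 in IFNγ+ cells. In all 3 populations 48 were (62.3%), against 56.4% of all regions within 1 kb of a start. Of the 242 other ISG regions, 104, 116 and 109 were accessible, and 82 (33.9%) in all 3 populations. Of all regions farther than 1 kb from any start, 22.8% were. These sets are not alike, since 41 of the 242 lay within 1 kb of another gene's start. Of the 8 called regions, those of *Usp18*, *Ifih1* and *Irf2* were under this minimum in every IL-4+ library and over it in both IFNγ+ libraries.

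Genes of the interferon pathway outside the set were counted in the same way. The 23 receptors, kinases, transcription factors, ligands and regulators had 294 regions. In IFNγ+ against LN cells 6 (2.04%, all regions 2.17%) were called higher and 1 (0.34%, all regions 0.862%) lower. In lung IL-4+ against LN cells these were 2 (0.68%, all regions 1.05%) and 1 (0.34%, all regions 0.695%). In lung IL-4+ against IFNγ+ cells they were 0 (all regions 0.108%) and 2 (0.68%, all regions 0.387%). The promoter region of *Ifng* itself, the gene of the ligand, had log2 densities of 0.53 and 1.34 in LN, 3.81, 4.02 and 3.50 in lung IL-4+ and 5.60 and 5.69 in IFNγ+ libraries. The IFNγ+ cells were chosen by a reporter of *Ifng*, so this order is a check of the sort for them. A promoter region of *Ifngr2*, a chain of the IFNγ receptor, had 2.64 and 2.20, then 2.94, 3.72 and 3.52, then 4.40 and 4.33, and was called in IFNγ+ minus LN cells (1.95 ± 0.31, SE, limma adjusted p = 0.00893). The 3 populations did not overlap there. For the 0 of these 294 regions called higher in lung IL-4+ than in IFNγ+ cells, 33 had an unadjusted p below 0.05 in limma and voom called 0. Among 55 other interferon-induced genes with 328 regions, 7 (2.13%, all regions 2.17%) were called higher in IFNγ+ than in LN cells. Higher in LN than in lung IL-4+ cells, 1 (0.305%, all regions 0.695%) was called. In limma 0 were called lower in IFNγ+ than in LN cells (15 at an unadjusted p below 0.05, 2 with voom), against 0.862% of all regions. Higher in lung IL-4+ than in LN cells there were 0 (33 unadjusted, 1 with voom), against 1.05%. Higher or lower in lung IL-4+ than in IFNγ+ cells there were 0 (9 and 35 unadjusted, 0 and 2 with voom), against 0.108% and 0.387%. A promoter region of *Ifi211* and *Ifi203*, members of the DNA-sensing IFI200 family whose copies are alike in sequence, had log2 densities of 2.1 and 2.48 in LN, 2.95, 2.07 and 2.29 in lung IL-4+ and 4.08 and 4.10 in IFNγ+ libraries. It was the only promoter region of these 55 genes that was called (1.80 ± 0.35 for IFNγ+ minus LN, SE, adjusted p = 0.0203). By gene, 51 of the 55 had a promoter region. Every IFNγ+ library was above every LN library for 27 (all genes 20.9%) and below for 11 (31.4%). Lung IL-4+ was above LN for 8 (6.31%) and below for 5 (18.2%). It was above IFNγ+ for 10 (22.5%) and below for 21 (28.2%). Of 21 pathway genes these counts were 7 and 6, 4 and 2, and 6 and 2. How much the spread of the libraries contributed was not tested.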

How the data were processed

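The 7 ATAC-seq libraries were grouped by tissue and reporter as in their labels, and all 7 columns of the deposited table were used. The authors' methods and the submitters' processing notes give Bowtie2 2.3.2 mapping to GRCm38/mm10, MACS2 2.1.1 peak calls per replicate that were then merged, and insertion counts per region normalized with voom (limma 3.38.3, R 3.5.1). The authors deposited log2 values of the normalized insertions per kilobase, and the sorted values of the libraries nearly coincide once region length is removed, so that they are also quantile-normalized, which pulls the libraries' distributions together. Insertion counts were rebuilt from ties as lower bounds and cover counting error only.

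Here, GENCODE M21 starts and gene bodies were assigned to regions in Python 3.11.15 (numpy 2.4.6, pandas 2.3.3, matplotlib 3.10.9). The log2 values of all 113820 regions were fitted in R 4.3.3 with limma 3.58.1 (lmFit and eBayes with a variance trend, 1 mean per population, no covariate, no filter, no pseudocount), with Benjamini-Hochberg adjustment over all regions within each of 3 contrasts. A region was called where this p was under 0.05 and the difference 3-fold or more. The procedure was run on simulated data, with recovery of the set changes required only at a spread smaller than that of the data. How many such changes would be found at the real spread is not given here. Whether LN and lung libraries share mice is not given in the sources used here, so p-values measure the spread between these libraries of 1 experiment. The members, lists and tests were chosen with earlier results of these data known. Named genes were, per contrast and direction, up to 10 called regions and the 3 largest promoter differences, the 5 interferon regulatory factors, members with no promoter region, the 3 highest and 3 lowest promoter densities, and context genes called at a promoter. *Ifit1*, *Ifit2*, *Oasl2*, *Tap1* and *Psmb8* were also named as neighbors or relatives of these, some after their values were seen. A B cell marker and a pathway gene of these lists are not reported here. Sequences are from RefSeq GRCm38.p6. Alternatives were a pseudocount of 1, median centring, quantile normalization, a density filter, fits of 2 populations, a replicate block, array weights, a spread class covariate, voom on rebuilt counts, other fold minimums, a promoter window of 2.5 kb and leaving out each library. Adding regions over a start to the promoters, and comparing libraries by spread class, were chosen after the data were seen.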

Additional observations from a re-analysis of the deposited data

How the results depend on the processing

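Counts of called ISG regions moved by more than 1.5 times under many alternatives, while the 10 differences at the 8 called regions kept their direction under each of the 16 other settings. Higher in IFNγ+ than in lung IL-4+ cells, 1 region (0.313%, all regions 0.387%) was called as reported. A pseudocount of 1 gave 3 (0.940%, all regions 0.534%), and array weights gave 9 (2.82%, all regions 3.02%). There were 4 (1.25%) each with 2 populations in the fit (all regions 0.792%), the spread class covariate (0.655%) and voom (0.738%). Array weights also called 9 (2.82%) higher in lung IL-4+ than in IFNγ+ cells, against 2.74% of all regions. The report has 0 there, against 0.108% of all regions. Higher in lung IL-4+ than in LN cells, 1 (0.313%, all regions 1.05%) became 0 under 6 settings. These were a pseudocount of 1 (all regions 0.640%), median centring (0.868%), quantile normalization (1.05%), 2 populations in the fit (0.561%), array weights (0.864%) and voom (0.860%). It became 3 (0.940%) with the spread class covariate (all regions 2.14%). With a fold minimum of 2 or none it became 4, against 2016 and 2137 of the 113820 regions. Higher in LN than in lung IL-4+ cells, 1 (0.313%, all regions 0.695%) became 0 with a pseudocount of 1 (all regions 0.630%) and with 2 populations in the fit (0.373%). It became 2 (0.627%) with the spread class covariate (all regions 1.39%). Higher in IFNγ+ than in LN cells, 6 (1.88%, all regions 2.17%) became 11 with voom (3.45%, all regions 3.21%). Higher in LN than in IFNγ+ cells, 1 (0.313%, all regions 0.862%) became 0 with a pseudocount of 1 (all regions 0.763%). With a fold minimum of 2 or none it became 2, against 1299 and 1321 of the 113820 regions. ISGs whose promoters were higher in every LN than in every lung IL-4+ library went from 5 (all genes 18.2%) to 8 with median centring. The share of all genes under median centring is not given, so this move cannot be read as particular to ISGs. The causes were not tested.

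With the replicate block, in which lung IL-4+ replicate 3 has no partner and drops out of the comparisons, 0 ISG regions were called in any comparison or direction. Over all regions it also called 0 in both comparisons with lung IL-4+ cells. Between the other populations it called 0.411% of all regions higher in IFNγ+ cells and 0.0773% higher in LN cells. For equal numbers, the correlations of deviations from the population means lay between -0.54 and 0.06. In a population of 2 libraries the deviations mirror each other, so these values cannot show or exclude pairing. Nothing in the labels says that a number marks a shared mouse or day, and whether the samples share more than a number is not known.

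Leaving out each library in turn, where a lone remaining library is assumed to vary like the others, gave 0 to 1 regions higher in lung IL-4+ than in IFNγ+ cells, 0 to 4 for the reverse, 0 to 3 higher in lung IL-4+ than in LN cells, 0 to 1 for the reverse, 0 to 11 higher in IFNγ+ than in LN cells and 0 to 1 for the reverse. The promoter counts, in the same order, ran from 8 to 14, 9 to 17, 6 to 16, 6 to 12, 15 to 21 and 12 to 19. With all libraries they were 8, 9, 6, 5, 15 and 11. A gene counts only where every library of a population is above every library of the other. Leaving out a library can therefore only keep or raise these counts, so their ranges cannot show whether they are stable. Shares of all genes with a library left out are not given. Of 16 other settings, the call was kept in 13 for *Usp18*, *Isg20* and the *Igtp* and *Irgm2* region against LN cells, 12 for *Irf2*, 11 for *Ifih1* and for *Usp18* between lung populations, 10 and 8 for *Nlrc5*, 5 for *Mx1* and 3 for *Gbp7*. Groups of 2 or 3 libraries limit what differences could be detected.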
